A study of Mus with 6 samples.

Results

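The genes examined encode inflammatory signalling proteins, namely the tumor necrosis factor (TNF) family ligands Tnf and Tnfsf9, the interleukin (IL) 1 family receptors Il1r1, Il1r2 and Il1rl2, and the cytokines Il7 and Il19. These are 7 of the 55421 genes counted in lens epithelial cells (LECs) after lens injury, and they belong to the cytokine genes that the study displayed for this comparison. That display was drawn from the same libraries, so the change of these genes between time points is described here and not tested. The RNAseq covered wildtype C57BL/6 mice whose lens fiber cells had been removed surgically to model cataract surgery, with capsules and attached LECs taken at 0 h or 6 h post cataract surgery (PCS), hereafter 0 h and 6 h. There were 3 libraries per time point, and 5 capsules were pooled for each. The labels give an age of 2 months, the study's methods an older range. By the labels, a mouse was operated on both eyes 6 h apart, so pools of the 2 time points may share animals, and which ones do is not stated.

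TNF acts through the receptors encoded by Tnfrsf1a and Tnfrsf1b, which lead to NF-kB and MAP kinase signalling and to the transcription of further cytokine genes. IL-1 binds the receptor encoded by Il1r1, whereas the product of Il1r2 binds IL-1 without signalling and serves as a decoy, and the product of Il1rl2 is the receptor for the IL-36 cytokines. IL-7 is a growth factor for lymphocytes that is made by stromal and epithelial cells. IL-19 is a member of the IL-10 family that signals through a receptor containing the Il20rb product. The Tnfsf9 product is a ligand for a receptor on activated T cells.

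Of the 7 genes, 5 were without counts in the 0 h libraries and were counted in all 3 of the 6 h libraries, namely Tnf, Il1r2, Il1rl2, Il7 and Il19. The remaining genes, Tnfsf9 and Il1r1, were already present at 0 h and were higher in every library at 6 h. Thus the time points did not overlap in any of the 7 genes, a pattern in this direction that 15.3% of the 16810 genes tested showed. Among the 28552 genes with any count, 70 (0.245%) had no count at 0 h and at least 3 counts in each library at 6 h, and 46 (0.161%) showed the opposite pattern. Ranked by their mean level at 6 h, Il19 was 1st of these 70 genes, Tnf was 9th, Il1rl2 was 17th, Il7 was 25th and Il1r2 was 67th. The libraries held 20253239 to 24701039 gene counts at 0 h and 18039974 to 22496116 at 6 h, and the part of depth in the counts of 0 was not tested. Replicate 1 at 6 h stood apart, with 33.6% of its read pairs on genes against 39.5% to 41.2% in the other libraries and with the lowest TMM factor, 0.827. It was also the lowest 6 h library for Tnfsf9, Il1r1, Il1rl2, Il7 and Il19, and the part of this difference in their levels was not tested.

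**Figure D1:**
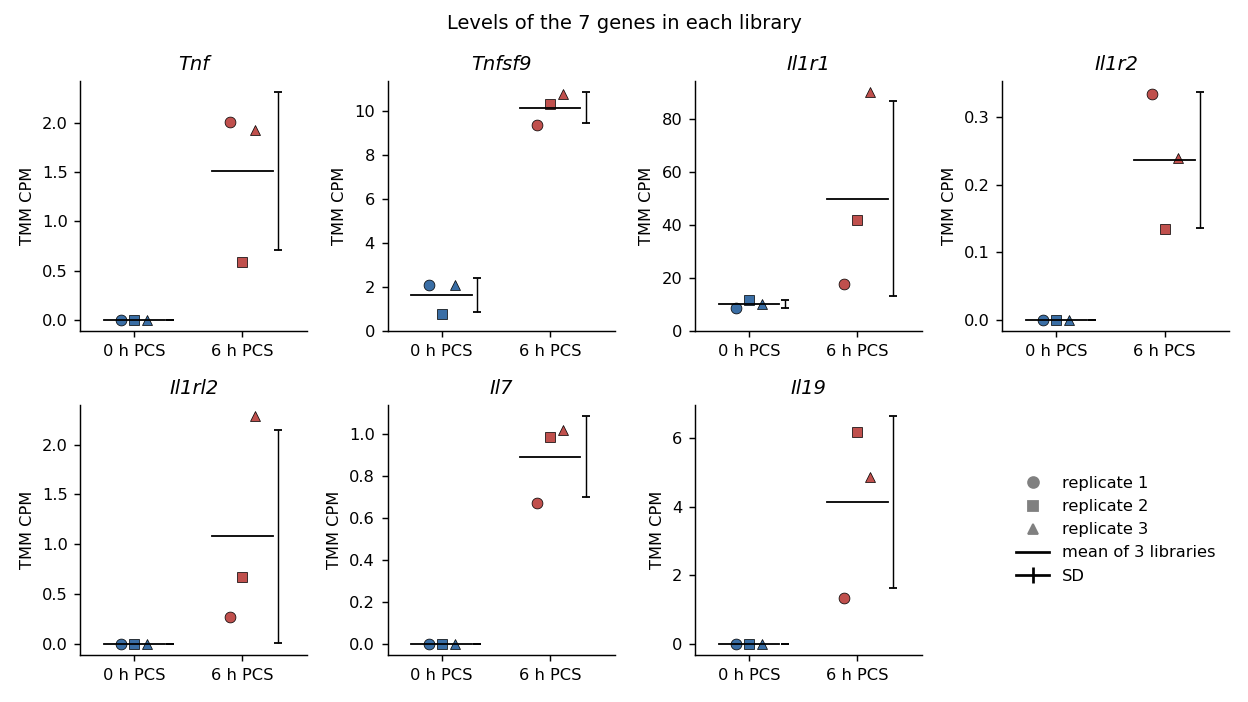
Level of each of the 7 genes in each library, as TMM CPM on the vertical axis, at 0 h and 6 h on the horizontal axis. Points are libraries, horizontal lines are means and bars are SDs of 3 libraries. All 3 libraries at 6 h lie above all 3 at 0 h in every panel, and the 6 h libraries spread most, relative to their level, in Il1rl2 and least in Tnfsf9.

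Tnf (ENSMUSG00000024401, GRCm38 chromosome 17, 35199367 to 35202007) encodes the founding cytokine of the TNF family and lies between its relatives Ltb and Lta, which were not analysed here. It had 0 counts in each library at 0 h and 30, 13 and 32 counts in replicates 1, 2 and 3 at 6 h. These 6 h counts corresponded to 2.01, 0.584 and 1.92 CPM, that is, counts scaled to library depth with the TMM factors of edgeR (TMM CPM), with a mean of 1.51 ± 0.800 CPM (SD, n = 3). Replicate 2, the deepest of the 6 h libraries, was thus the lowest for Tnf. A count of 0 still allows about 3 counts in a library as a one-sided 95% limit (the two-sided exact Poisson limit is 3.69), and against a level of 3 counts in each 0 h library the mean of Tnf was at least 12.3-fold higher at 6 h. The lowest 6 h library alone, replicate 2, was 4.77 times that level. This and the other lower bounds are for the mean of the 6 h libraries and carry no counting error of these libraries. Had the 0 h libraries carried the mean 6 h level, they would have held 34.96 to 41.4 Tnf counts each.

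Tnfsf9 (ENSMUSG00000035678, chromosome 17, 57105287 to 57107758) stood apart from Tnf in its level at 0 h and in its uniformity at 6 h. It had 49, 21 and 49 counts at 0 h and 140, 230 and 179 counts at 6 h. Its mean level went from 1.66 ± 0.776 to 10.2 ± 0.706 CPM (SD, n = 3), and edgeR put the log2 fold change at 2.62 ± 0.400 (standard error, SE). The 6 h libraries differed by no more than 1.15-fold between lowest and highest, the narrowest spread of the 7 genes, and the lowest 6 h library was 4.44-fold above the highest 0 h library. Per exon length, Tnfsf9 exceeded Tnf by 5.93-fold, 22.5-fold and 7.11-fold in 6 h replicates 1, 2 and 3. The Tnfsf9 locus shares 656 bp with the gene model Gm11110, which had 54, 86 and 49 counts at 0 h and 12, 44 and 27 at 6 h. Gm11110 therefore did not follow Tnfsf9 upward (log2 fold change −0.77, SE 0.497, edgeR quasi-likelihood F-test, Benjamini-Hochberg adjusted p = 0.396).

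The genes for the IL-1 receptor family members were unlike each other in level. Il1r1 was the only receptor gene of the 3 with counts at 0 h. It had 207, 320 and 241 counts at 0 h and 266, 935 and 1501 counts in replicates 1, 2 and 3 at 6 h. Expressed as TMM CPM, the 0 h libraries lay between 8.89 and 11.6 and the 6 h libraries were at 17.8, 42.0 and 90.3. The highest 6 h library was thus 5.06-fold above the lowest, while the 0 h libraries differed by 1.31-fold. Mean levels were 10.3 ± 1.38 and 50.0 ± 36.9 CPM (SD, n = 3), and the log2 fold change of 2.28 ± 0.588 (SE) became 1.54 when 6 h replicate 3 was left out.

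Il1rl2, the IL-36 receptor gene, had 0 counts in each 0 h library and 4, 15 and 38 counts in replicates 1, 2 and 3 at 6 h. These are 0.268, 0.673 and 2.29 TMM CPM, a mean of 1.08 ± 1.07 CPM (SD, n = 3). Its spread was the widest of the 7 genes, with 8.52-fold between the lowest and the highest 6 h library. The mean of Il1rl2 was at least 8.79-fold higher at 6 h, or at least 3.85-fold without 6 h replicate 3, so 1 library set much of this bound. The lowest 6 h library was 2.19 times the 3-count level at 0 h. Replicate 1 was lowest and replicate 3 highest for both Il1r1 and Il1rl2.

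Il1r2, the decoy receptor gene, had the fewest counts. None was found at 0 h, and 6 h replicates 1, 2 and 3 held 5, 3 and 4 counts. The exact 95% Poisson intervals of these counts run from 1.62 to 11.7, from 0.619 to 8.77 and from 1.09 to 10.2, so the 6 h libraries cannot be ranked for Il1r2. With 0.237 ± 0.1003 CPM (SD, n = 3) at 6 h its mean was 1.93 times the 3-count level at 0 h, and the lowest 6 h library was 1.10 times that level. The lower limits of all 3 intervals lie under 3 counts, so no lower bound is given for the fold change of Il1r2. Per exon length, Il1r1 exceeded this decoy by 16.0-fold, 93.5-fold and 112.5-fold in 6 h replicates 1, 2 and 3. The intervals cover counting error only, since amplified reads are not independent molecules.

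The 3 receptor genes are neighbours on chromosome 1 of GRCm38 in the RefSeq annotation. Il1r2 (ENSMUSG00000026073) spans 40084692 to 40125230, Il1r1 (ENSMUSG00000026072) spans 40222480 to 40316201 and Il1rl2 (ENSMUSG00000070942) spans 40324589 to 40367555. Il1r2 and Il1r1 are 97249 bp apart, and 8387 bp separate Il1r1 from Il1rl2. The interleukin receptor genes Il1rl1, Il18r1 and Il18rap follow next to Il1rl2 and were not analysed here. The closest pair, Il1r1 and Il1rl2, differed by 71.2-fold, 66.7-fold and 42.3-fold in level per exon length in 6 h replicates 1, 2 and 3.

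**Figure D2:**
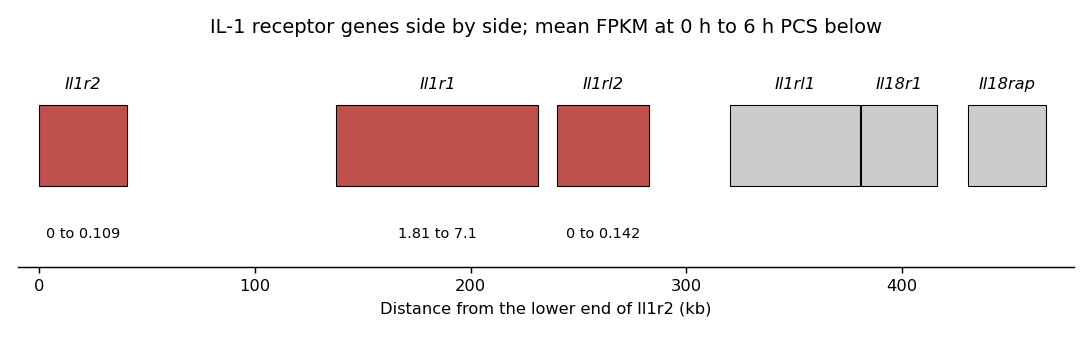
Map of the receptor genes on chromosome 1, to scale, with distance from the lower end of Il1r2 in kb on the horizontal axis. Red boxes are the 3 genes analysed, with their mean FPKM at 0 h and 6 h below, and grey boxes are neighbouring genes that were not analysed. Of the red genes, Il1r1 lies in the middle and has the highest level at both time points.

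Il19 (ENSMUSG00000016524, chromosome 1, 130932656 to 130945457) had the most counts of the genes that were at 0 in all 0 h libraries. Its 6 h counts were 20, 138 and 81 in replicates 1, 2 and 3, which correspond to 1.34, 6.20 and 4.87 TMM CPM. The mean was 4.14 ± 2.51 CPM (SD, n = 3). Replicate 2, the lowest library for Tnf, was the highest for Il19, and per exon length Il19 stood at 0.951, 15.1 and 3.61 times Tnf in replicates 1, 2 and 3. The 6 h libraries thus did not rank these cytokine genes alike. The mean of Il19 was at least 33.8-fold higher at 6 h, a bound that lay between 25.4-fold and 45.2-fold when each library was left out in turn. The lowest 6 h library, replicate 1, was 10.9 times the 3-count level at 0 h. The neighbouring genes Il20, Il24 and Il10 encode other cytokines of its family and were not analysed here.

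Il7 (ENSMUSG00000040329, chromosome 3, 7572028 to 7613760) had 10, 22 and 17 counts in replicates 1, 2 and 3 at 6 h, and none at 0 h. Its levels of 0.670, 0.988 and 1.02 TMM CPM lay close together, with 1.53-fold between lowest and highest and a mean of 0.894 ± 0.194 CPM (SD, n = 3). This mean was at least 7.30-fold higher than the 3-count level at 0 h, and the lowest 6 h library was 5.47 times that level. The Il7 locus shares 1056 bp with the gene model Gm16685 (chromosome 3, 7612705 to 7690001), which likewise had no count at 0 h and had 11, 46 and 38 counts at 6 h. Gm16685, at 1.70 ± 0.838 CPM (SD, n = 3), was at least 13.9-fold higher at 6 h, given as a description since it overlaps Il7 and passed the low-count filter through its 6 h counts alone. Both gene models at this locus were therefore counted at 6 h only. The strand setting of the counting is not given in the sources used here, so reads from Il7 and Gm16685 cannot be fully told apart, and the same holds for Tnfsf9 and Gm11110. Il1r2 and Il1rl2 likewise share 1160 bp with Gm16894 and 747 bp with Gm17970, gene models that were not analysed here, so the same limit applies to their few counts.

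**Figure D3:**
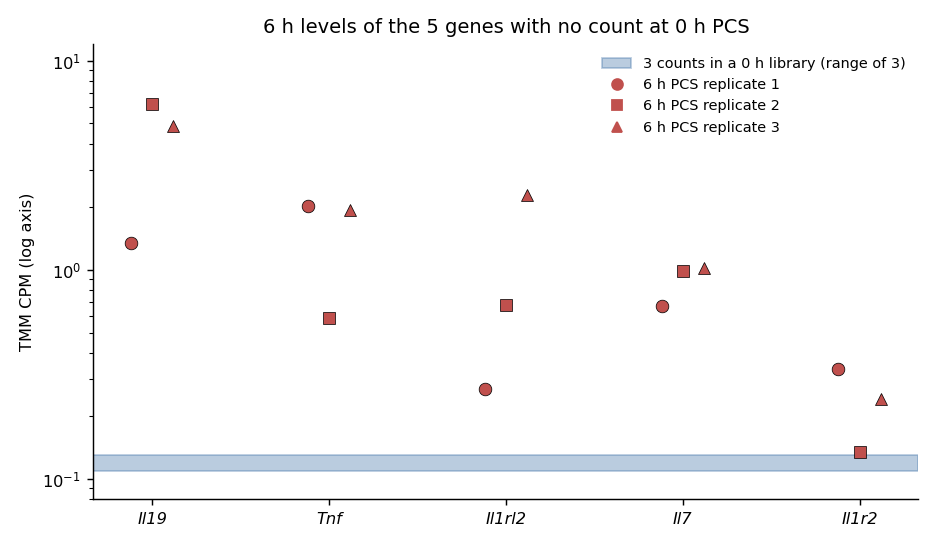
TMM CPM on a log axis in the 3 libraries at 6 h for the 5 genes without counts at 0 h. The blue band is the level that 3 counts would give in the 0 h libraries, the limit used for a count of 0. Il19 in replicates 2 and 3 lies highest above the band, and Il1r2 in replicate 2, with 3 counts, lies just above it.

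Levels of different genes were compared as FPKM, which scales counts to library depth and exon length. At 0 h, Il1r1 was at 1.81 ± 0.260 and Tnfsf9 at 1.44 ± 0.677 FPKM (SD, n = 3), a difference smaller than the SD of Tnfsf9. At 6 h, Il1r1 at 7.10 ± 5.09 and Tnfsf9 at 7.09 ± 0.976 FPKM led, followed by Il19 at 3.34 ± 2.21 and Tnf at 0.799 ± 0.387 FPKM. Il7 at 0.143 ± 0.0397, Il1rl2 at 0.142 ± 0.136 and Il1r2 at 0.109 ± 0.0377 FPKM came last. Il1r1 did not differ from Tnfsf9 beyond its spread. Its mean differed from that of Il19 by less than its SD, although Il1r1 was above Il19 in each 6 h library. The lowest 3 genes did not differ from each other beyond theirs, whereas Tnf lay above them and below Tnfsf9 in every 6 h library. Hence 3 of the 7 genes exceeded the study's minimum level of 2 FPKM at 6 h, and 0 did so at 0 h.

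Il1r2 and Il1rl2 did not pass edgeR's filter on low counts, and 5 of the 7 genes did. Differentially expressed genes (DEGs) needed a false discovery rate (FDR) ≤ 0.05 together with a change of more than 2-fold, and of the 16810 genes tested 5.35% were DEGs, 4.53% upregulated and 0.821% downregulated. The split by direction depended on the scaling, as library size alone gave 572 upregulated and 627 downregulated DEGs against 762 and 138. Tnf, Tnfsf9, Il7 and Il19 carried this call, and Il1r1 did not. As the genes were chosen by this same contrast, the count supports nothing further.

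The other genes of these pathways were taken from lists of ligands, receptors and signalling proteins, and for them the test over all genes applies. Gene names were at hand for 32 of 117 listed genes. Among the 32, 14 were upregulated DEGs, 0 were downregulated and 18 were not called, with a median log2 fold change of 1.05. The median was 0.19 over the named genes tested and −0.0030 over all genes tested. The names at hand lean towards changed genes, and 11.6% of all 6362 named genes tested were upregulated DEGs and 2.11% were downregulated DEGs. Of the 14 DEGs, 7 kept the call whichever of the 6 libraries was left out, and the number of upregulated DEGs fell to 8 without 0 h replicate 1 and to 9 without 6 h replicate 3. With scaling on library size alone, 9 were upregulated and 1 was downregulated, and the Il1b, Irak3, Jak1, Jak3 and Stat3 calls were lost.

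**Figure D4:**
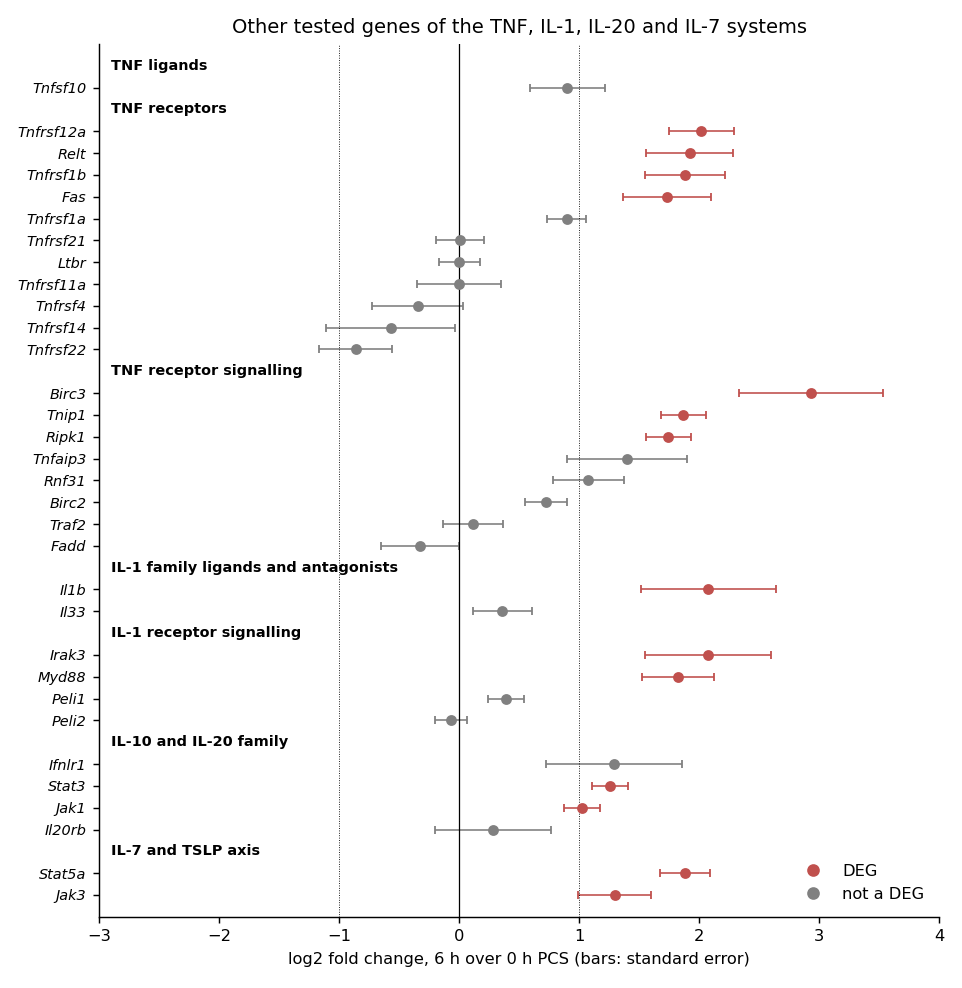
Log2 fold change of 6 h over 0 h on the horizontal axis for the 32 other genes of the TNF, IL-1, IL-10 and IL-20, and IL-7 lists that were tested, grouped by list. Points are estimates from edgeR, bars are standard errors, red marks DEGs and dotted lines mark a fold change of 2. The 14 red points all lie to the right of the dotted line at 1.

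Of the receptors for TNF, Tnfrsf1b had 146, 228 and 113 counts at 0 h and 201, 576 and 536 at 6 h. It rose from 6.48 ± 1.72 to 23.9 ± 9.54 CPM (SD, n = 3; log2 fold change 1.88, SE 0.332, edgeR adjusted p = 0.00858), a call that was lost without 0 h replicate 1. Tnfrsf1a, the receptor present on most cell types, had 24.3 ± 1.91 CPM at 0 h and 45.3 ± 6.08 CPM at 6 h (SD, n = 3). Per exon length it was at 10.5 ± 0.997 and 15.6 ± 1.74 FPKM, above Tnfrsf1b at 1.89 ± 0.485 and 5.68 ± 2.42 FPKM (SD, n = 3). The log2 fold change of Tnfrsf1a, 0.89 (SE 0.159, edgeR adjusted p = 0.0083), met the FDR criterion and fell short of the fold criterion. Of the 28 TNF receptor family genes listed, 11 had a name at hand. Among these, 4 rose and none fell, beside 11.6% and 2.11% of the named genes tested, with a median log2 fold change of 0.0074. Tnfrsf22 was lower in every 6 h library without passing the test (log2 fold change −0.86, SE 0.306, edgeR adjusted p = 0.122). The others that rose were Tnfrsf12a, the receptor for the cytokine TWEAK (log2 fold change 2.02, SE 0.269), Relt (1.92, SE 0.362) and Fas, which can trigger apoptosis (1.73, SE 0.368), and the Fas call was lost without replicate 1 of either time point or without 6 h replicate 3. Tnfsf10, the only other TNF family ligand analysed, had a log2 fold change of 0.90 (edgeR adjusted p = 0.117).

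Downstream of these receptors, 8 of the 19 genes listed had a name at hand. Of these 8, 3 rose, beside 11.6% of the named genes tested. They were Birc3, an inhibitor of apoptosis and ubiquitin ligase (log2 fold change 2.93, SE 0.600), Tnip1, which restrains NF-kB signalling (1.87, SE 0.185), and Ripk1, a kinase of the TNF receptor complex (1.74, SE 0.188). Tnip1 and Ripk1 were DEGs in all 6 fits without 1 library, whereas Birc3 was a DEG in 2 of them and not when any 0 h library or 6 h replicate 2 was left out. The log2 fold change of Birc3 was 2.22 without 6 h replicate 3, and its call was also lost with no low-count filter and with a replicate block. Tnfaip3, which ends NF-kB signalling, had a log2 fold change of 1.40 but an edgeR adjusted p of 0.166.

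Around the IL-1 receptor, the ligand gene Il1b had 18, 45 and 13 counts at 0 h and 35, 89 and 105 at 6 h. It rose from 0.990 ± 0.570 to 4.22 ± 1.99 CPM (SD, n = 3; log2 fold change 2.08, SE 0.559, edgeR adjusted p = 0.0495) and was a DEG in 2 of the 6 fits without 1 library. Leaving out replicate 1 or 3 of the 0 h libraries, or replicate 2 or 3 of the 6 h libraries, removed the call. Il33, an alarmin, differed by less (log2 fold change 0.36, edgeR adjusted p = 0.427). The adaptor gene Myd88 rose from 6.65 ± 2.38 to 23.6 ± 6.95 CPM (SD, n = 3; log2 fold change 1.82, SE 0.302) and was a DEG in all 6 fits. Irak3, a negative regulator of this pathway, rose by a log2 fold change of 2.07 (SE 0.528) and was a DEG in 1 of the 6 fits, the one without 6 h replicate 1.

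Il20rb, which encodes a chain of the IL-19 receptor, did not pass the test. It had 50, 74 and 62 counts at 0 h and 64, 29 and 60 at 6 h, a log2 fold change of 0.28 (SE 0.485, edgeR adjusted p = 0.775) that was −0.0746 with scaling on library size alone, which moved the median of all genes to −0.32. The time points overlapped in this gene, in contrast to its ligand gene. The kinase and transcription factor genes Jak1 and Stat3 rose by log2 fold changes of 1.03 (SE 0.1496) and 1.26 (SE 0.151), and Jak1 was not a DEG without 0 h replicate 2 or 6 h replicate 3. With scaling on library size alone neither was a DEG, at 0.71 for Jak1 and 0.94 for Stat3. Of the IL-7 axis, Stat5a rose from 8.96 ± 0.882 to 33.02 ± 7.24 CPM (SD, n = 3; log2 fold change 1.88, SE 0.210). Jak3 rose by 1.30 on the log2 scale (SE 0.302) but was a DEG in 1 of the 6 fits, the one without 0 h replicate 2. Of the 16 direct partners of the 7 genes that were listed, 12, among them the IL-7 receptor gene Il7r, the co-receptor gene Il1rap and the antagonist gene Il1rn, were not analysed here.

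In pooled capsules, fewer cells of a type and less RNA per cell cannot be told apart, and markers of other cell types were therefore summed in each library. The 6 lens epithelial markers analysed, including Pax6, Foxe3 and Prox1, summed to 1479 to 1731 CPM at 0 h and 1188 to 1461 CPM at 6 h. They moved both ways, as Epha2 was an upregulated DEG (log2 fold change 1.21, edgeR adjusted p = 0.0134), while Prox1 (−0.75, edgeR adjusted p = 0.0119) and Sox2 (−0.70, edgeR adjusted p = 0.0151) met the FDR criterion downward without reaching a 2-fold change. The 4 pigment cell markers summed to 51.3 to 209 CPM at 0 h and to 77.3, 455 and 1962 CPM in 6 h replicates 1, 2 and 3. The same order of the 6 h libraries was seen in Il1r1 and Il1rl2. The summed macrophage markers were lowest in replicate 1, but replicates 2 and 3, at 46.5 and 48.1 CPM, cannot be ranked within counting error. The summed stroma markers had this order through Col1a1, with 59, 839 and 1930 counts, whereas Col1a2 and Pdgfra had their most counts in replicate 2. Il19 shared its order, lowest in replicate 1 and highest in replicate 2, with the leukocyte and erythrocyte sums. Tnf was lowest in replicate 2, as were the lens epithelium, lens fiber and endothelium sums, and its replicates 1 and 3 cannot be ranked within counting error. Tnfsf9 and Il7 were lowest in replicate 1, and for them replicates 2 and 3 cannot be ranked. The part of these cell types in the levels of those genes was not tested.

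The 4 leukocyte markers, including Ptprc, summed to 2.03 to 7.56 CPM at 0 h and 5.97 to 14.4 CPM at 6 h, a 2.10-fold ratio of the mean sums, and 0 of the 3 tested were DEGs. The 9 macrophage markers summed to 23.4 to 43.7 and 26.4 to 48.1 CPM, and 1 of the 9, Cd68, was an upregulated DEG. The sums of both lists overlapped between the time points, and no listed marker with a name was at 0 in all libraries. Of the single markers, Lcp1 and Cd68 were nevertheless higher in every 6 h library as TMM CPM, Lcp1 only narrowly in replicate 1, and the others overlapped. Lcp1 had 52, 60 and 15 counts at 0 h and 36, 115 and 73 at 6 h. The part of leukocytes and macrophages in the levels of the 7 genes and of the pathway genes was not tested. The 2 corneal keratins, Krt12 and Krt5, summed to 0.764 to 14.7 CPM at 0 h and 69.0 to 104 CPM at 6 h with 0 DEGs, and the 5 erythrocyte markers to 7.93 to 19.5 and 73.4 to 132.5 CPM with 5 upregulated DEGs. Corneal and erythrocyte markers were thus higher in every 6 h library, as the 7 genes were, and their part in those levels and in the rise of the pathway genes was not tested. The 4 endothelial markers summed to 4.09 to 26.2 CPM at 0 h and 19.9 to 36.9 CPM at 6 h with 0 DEGs, a 1.96-fold ratio of the mean sums, and 2 of them, Pecam1 and Cdh5, were higher in every 6 h library. Their part in the levels of the 7 genes and of the pathway genes was likewise not tested. The 2 lens fiber markers summed to 1276 to 1783 and 1203 to 1633 CPM, and the 4 stroma markers to 292 to 330 and 213 to 317 CPM, with 0 DEGs in either list. The stroma marker with the highest level, Pdgfra, met the FDR criterion downward without a 2-fold change (log2 fold change −0.73, edgeR adjusted p = 0.0179). Col1a1 had a log2 fold change of 2.54 without passing the test (edgeR adjusted p = 0.308). The neutrophil list and the list for lymphocytes and mast cells were not analysed here.

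**Figure D5:**
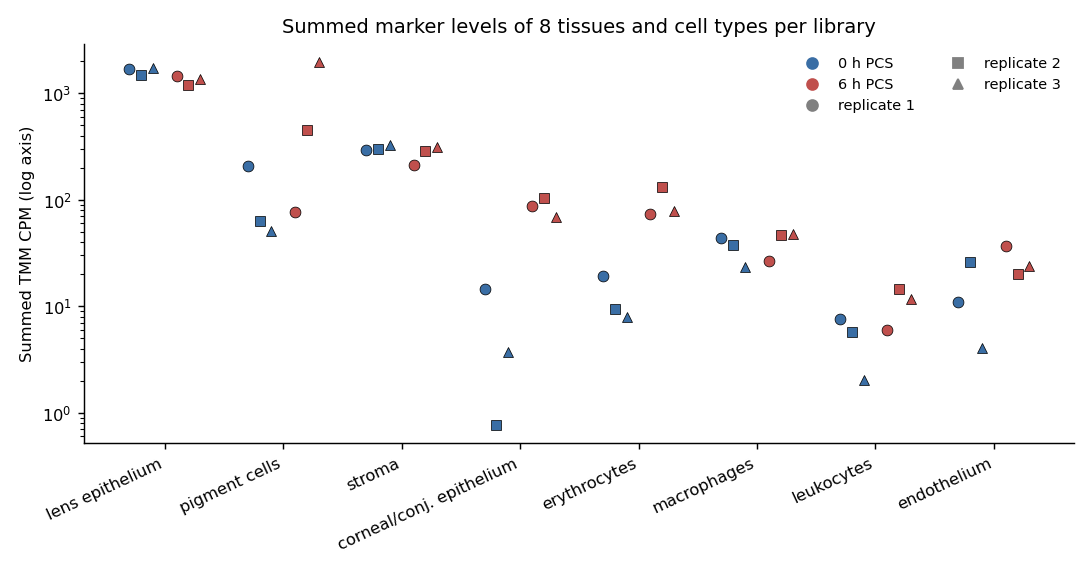
Summed TMM CPM of the markers of 8 tissues or cell types on a log axis, per library, with 0 h in blue, 6 h in red and the shape giving the replicate. Leukocyte and macrophage sums overlap between the time points, corneal and erythrocyte sums do not, and the pigment cell sum differs most between the 6 h libraries.

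The genes with the most similar profile were found by the root mean square difference (RMSD) of log2(TMM CPM + 0.5) over the 6 libraries, after each gene was centred on its own mean. For Il19 the nearest named gene was Krt17, a keratin of stressed epithelia, with an RMSD of 0.258. Krt17 had 1, 7 and 4 counts at 0 h and 18, 157 and 75 at 6 h. Like Il19, it was lowest in replicate 1 and highest in replicate 2 at 6 h. Next was Crispld2 with an RMSD of 0.295. For Tnfsf9 the nearest genes were Dusp10, a phosphatase of MAP kinases, at 0.152 and Uck2, a uridine-cytidine kinase, at 0.154. For Il1r1 they were Defb1, which encodes an antimicrobial peptide, at 0.180 and Clic4 at 0.229, and for Il1rl2 they were 1500015A07Rik at 0.128 and Helz2 at 0.171. Tnf was nearest to 5330431K02Rik (0.192) and Gm49427 (0.199), Il7 to Rusc2 (0.0680) and Micall1 (0.0822), and Il1r2 to Cep120 (0.0408) and Itprid2 (0.0586). For the genes with few counts the added 0.5 CPM flattens the profile, so the smallest differences do not mark the closest likeness.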

How the data were processed

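The RNAseq of wild type LECs at 0 h and 6 h PCS comprised 6 libraries. Alignment by the authors was to GRCm38 (Hisat2), and HTSeq, run in union mode, assigned the pairs to Ensembl genes. The authors deposited these raw counts per library without normalization. Between 33.6% and 41.2% of the pairs in a file fell on genes, and the 5 summary rows of HTSeq were left out. With the counts as deposited, edgeR 4.0.16 in R 4.3.3 was used with TMM normalization, its filter on low counts by group, robust dispersions and the quasi-likelihood F-test in its earlier form, as in the study's methods. Genes were called DEGs at a Benjamini-Hochberg FDR ≤ 0.05 with a fold change over 2. As SE served the absolute log2 fold change divided by the square root of F. FPKM used total gene counts and the exon lengths of the study's supplementary tables, which also gave the symbols of 7013 genes. Coordinates come from RefSeq for GRCm38.p6. The fit was tested on simulated data.

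Where all 0 h libraries had 0 counts, the fold is a lower bound, except for Il1r2 with its few counts: the mean 6 h CPM over the mean CPM of 3 counts per 0 h library. The members and lists were chosen with earlier results of these data known. Named were the 7 genes, 16 direct partners, the pathway DEGs, the nearest 2 profiles of each gene and, outside that rule, the overlapping gene models, further pathway genes near the limits, and markers. No sequences were analysed here, and promoter motifs were not searched. The p-values measure the spread between pools. A permutation test of 3 against 3 libraries was not used. Alternatives were DESeq2 1.42.0, edgeR's exact test and version 4 method, other scalings and filters, a replicate block and leaving out each library.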

Additional observations from a re-analysis of the deposited data

How the results depend on the processing

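The fold changes of Tnfsf9 and Il1r1 kept their direction under every alternative run, whereas the 5 genes without counts at 0 h could not turn. With each library left out in turn, the log2 fold change ranged from 2.26 to 2.83 for Tnfsf9 and from 1.54 to 2.68 for Il1r1, lowest without 6 h replicate 3 and then further from 2.28 than the SE of 0.588. The lower bound went from 10.2-fold to 16.1-fold for Tnf, from 25.4-fold to 45.2-fold for Il19, from 6.77-fold to 8.21-fold for Il7, from 3.85-fold to 12.1-fold for Il1rl2 (lowest without 6 h replicate 3), and the ratio of Il1r2 to the 3-count level from 1.53 to 2.35. Scaling on library size alone shifted the median log2 fold change of all genes to −0.32 and gave bounds of 9.58-fold for Tnf, 28.1-fold for Il19, 5.92-fold for Il7, 7.05-fold for Il1rl2, and a ratio of 1.52 for Il1r2.

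DESeq2 called 1389 DEGs (1146 upregulated, 243 downregulated) against 900 (762 and 138). Downregulated DEGs numbered 253 with the exact test, 257 with no low-count filter and 627 with library size alone, where 572 were upregulated. Leaving out each library gave 553 to 877 DEGs, of which 43 to 140 were downregulated, with the fewest without 0 h replicate 1 (43 downregulated) and 53 downregulated without 0 h replicate 3. Among the 32 other pathway genes, 8 to 12 were then upregulated. Library size alone left 9 upregulated and 1, Tnfrsf22, downregulated (log2 fold change −1.18), and Il20rb turned to −0.0746, and it ranged from −0.0417, without 6 h replicate 1, to 0.632 when libraries were left out. The Il1b, Irak3, Jak1, Jak3 and Stat3 calls were lost with this scaling, and the cause was not tested. The same scaling gave 6 h to 0 h ratios of summed markers of 0.656 for lens epithelium, 0.714 for lens fiber and 0.718 for stroma. Whether the replicate numbers pair the libraries is not stated. The deviations of same-numbered libraries correlated at −0.01, 0.283 and 0.156, and replicates 2 and 3 but not replicate 1 correlated best with their own number, a hint from the data that did not meet the criterion for pairing, a correlation over 0.1 in every pair. A replicate block gave 1050 DEGs and 13 upregulated pathway genes, without Birc3. The depth limits Il1r2 most, with 3 to 5 counts per library.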

Other observations

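Of the 70 genes with no count at 0 h PCS and at least 3 counts in each library at 6 h PCS, 33 had a name at hand. The most abundant after Il19 were Enpp3 with 3.71 CPM, Gsta2 with 2.48 CPM and Krtap4-16 with 2.36 CPM as the mean at 6 h PCS, named here because of their rank. The T cell receptor gene Trdc, picked out after its values were seen, was also among the 70, with 4, 14 and 44 counts in replicates 1, 2 and 3 at 6 h PCS. Il1rl2 had 4, 15 and 38 counts in the same libraries. This order of the libraries was not particular to these genes, as Il1r1 and the summed pigment cell markers had it too. A link between Trdc and Il1rl2 was not tested.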
